A study of Bos taurus with 252 samples.

Results

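Whole blood of 12 steers was compared over the first 3 days after metaphylaxis, the treatment of healthy cattle at arrival to limit bovine respiratory disease. The comparison was of the 24 libraries of days 0 and 3 from the 6 steers given ceftiofur (CEFT) and the 6 negative control steers given no antimicrobial (NC), out of 42 steers that were each sampled on 6 days. Tests of CEFT and NC come from a fit of the 72 libraries of these 12 steers on all 6 days, unless another fit or test is named. For each steer, the change from its day 0 sample to its day 3 sample was taken, and the CEFT changes were set against the NC changes. The CEFT steers received a single administration of ceftiofur under the skin at the base of the ear after the day 0 sample was drawn. All steers of both groups were crossbred and had been given tildipirosin, an implant, antiparasitics and vaccines at an earlier stage, before they came to the feedlot, so NC is not a group without antimicrobial history. Each treatment was housed in its own pen, so pen and treatment cannot be told apart. After day 0 the groups passed the chute in a fixed order, with NC first and CEFT just before OXYT at the end, so the hour and order of sampling on day 3 cannot be told apart from the treatment either. All CEFT libraries were sequenced on lane 3 and all NC libraries on lane 1, so an effect of the lane on the change cannot be told apart from an effect of the treatment. The steers given oxytetracycline (OXYT) were sequenced on lane 3 as well, were sampled next to CEFT and gave a comparison within the lane.

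Ceftiofur is a cephalosporin. It binds the enzymes that crosslink the bacterial cell wall, which mammalian cells do not have. The RNA of whole blood comes from neutrophils, lymphocytes, monocytes, platelets and young red cells together, and in such bulk samples fewer cells of a type and less RNA per cell cannot be told apart. Levels are given as CPM, the count of a gene relative to the total count of its library, with totals scaled by TMM (trimmed mean of M values). They are not per unit of gene length and are compared between samples only. Changes and differences of changes are on the log2 scale.

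The 24 libraries held 30.6 M to 53.5 M counts, with a median of 42.8 M, within the range of 26.1 M to 74.1 M over the whole series. The totals hardly moved between the days. The mean log2 change of the total was -0.07 ± 0.07 in CEFT and -0.05 ± 0.26 in NC (SD, n = 6 each, exact permutation test, two-sided, p = 0.879). Hemoglobin transcripts took 0.0406% to 6.13% of the counts. Their share was higher on day 3 in 4 of 6 CEFT and 5 of 6 NC steers, and the mean log2 changes of 1.57 ± 2.56 and 0.82 ± 1.69 did not differ beyond the spread (exact permutation test, p = 0.537; the smallest p for 6 against 6 is 0.00217). The defining markers of blood were present throughout. The 14 T-cell genes summed to 1957 to 3853 CPM and the 11 neutrophil genes to 2568 to 7233 CPM.

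The day 3 libraries of steers Ceft5 and Ceft10 stood apart from the rest. The collagen transcripts COL1A1, COL1A2 and COL3A1, which are made by connective tissue cells and not by leukocytes, summed to 588 CPM in Ceft5 and 502 CPM in Ceft10 on day 3. These were the highest sums in the whole series, in which the third was 224 and the median 4.22. The 10 skeletal muscle markers summed to 429 CPM in Ceft10 and 365 CPM in Ceft5 on day 3, ranks 1 and 3 in the series, against a median of 10.1. ACTA1 (skeletal muscle actin) and CKM (muscle creatine kinase) passed the test between CEFT and NC. On day 3 ACTA1 lay between 0 and 156 CPM in CEFT, with a median of 5.60, and at 0.106 CPM or below in NC. CKM lay between 0 and 86.2 CPM in CEFT and at 0 in all 6 NC libraries. Of the 10 muscle markers, 9 had p under 0.05 with a higher change in CEFT (edgeR). Their median difference was 8.64, from median fitted changes of 3.86 in CEFT and -5.16 in NC. On day 0 ACTA1 had reached 10.8 CPM in NC15. Without Ceft5 and Ceft10 the median difference was 9.13, but ACTA1 and CKM were not called (adjusted p = 0.1729 and 0.1835, edgeR). On their own in CEFT, 7 of the 10 markers rose with all steers and 0 without these 2. The fitted differences also rest on NC values at the floor. In NC, 4 of the markers were at 0 in all day 3 libraries, and the median over steers of the list's change was 0. Ceft3 and Ceft4 rose too, with median changes of 4.21 and 2.76. Because of the sums in Ceft5 and Ceft10, the counts of called genes are also given without them, a setting chosen after seeing the data.

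**Figure D1:**
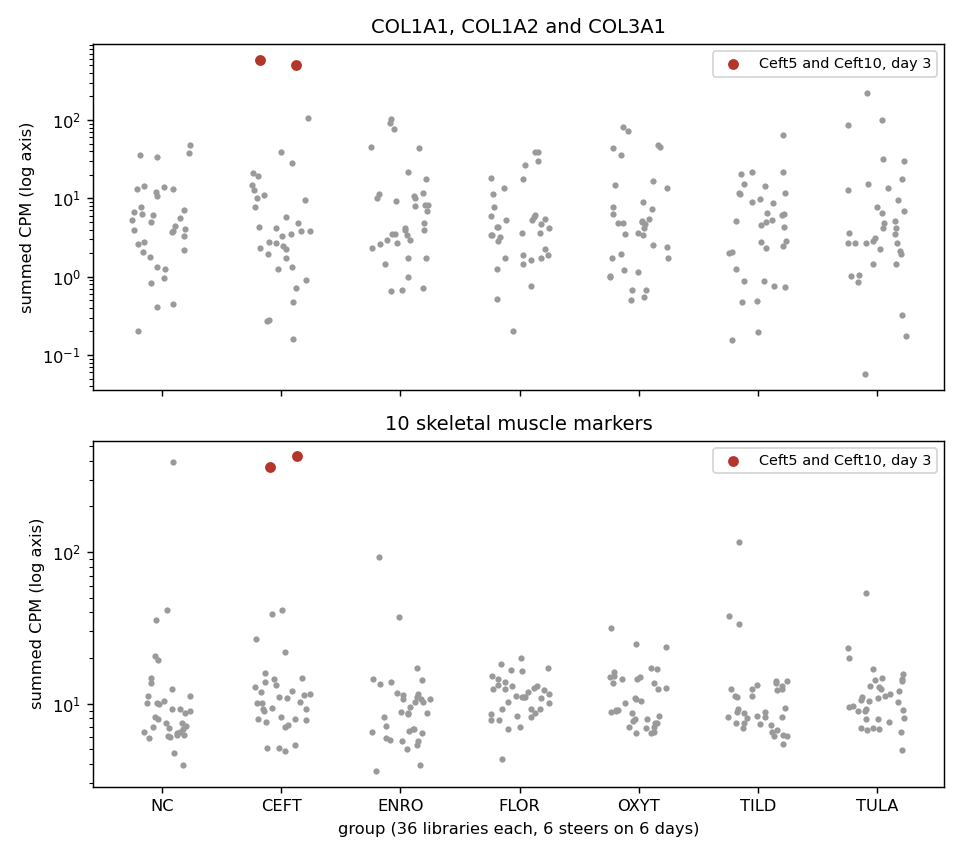
Summed CPM of 3 collagen genes and of 10 skeletal muscle markers (log scale) in all libraries of the series, by treatment. The day 3 libraries of Ceft5 and Ceft10 lie at the top for collagen, at 588 and 502 CPM, and at ranks 3 and 1 for muscle.

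The first question was how far blood expression moved in the CEFT steers themselves. Between day 0 and day 3, 2523 genes rose and 2769 fell in CEFT, together 27.8% of the 19056 genes tested (13.2% higher, 14.5% lower; edgeR's quasi-likelihood test, FDR 0.1). In NC, 16 genes rose and 24 fell over the same days, 0.21% of the genes tested. The median size of the called CEFT changes was 0.38. Without Ceft5 and Ceft10, 3430 genes were called in CEFT (1731 higher, 9.08%, and 1699 lower, 8.92%), and 2857 when Ceft4 alone was left out. All 7 groups of steers could be set side by side in a fit of all libraries of the series. There the own change called 28.2% of genes in CEFT, 11.1% in florfenicol (FLOR), 10.6% in tildipirosin (TILD), 9.94% in tulathromycin (TULA), 6.6% in enrofloxacin (ENRO), 2.15% in OXYT and 0.383% in NC steers. In a fit of the 84 libraries of days 0 and 3 the CEFT share was 28.3%, and 22.5% without Ceft5 and Ceft10. These shares are not a test of a difference between treatments, which is given further on.

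The second question was whether the CEFT change differed from the NC change. Of 19056 genes, 134 passed (0.703%), 58 of them with a higher change in CEFT (0.304%) and 76 with a lower one (0.399%). Before adjustment, 3432 genes had p under 0.05. All 134 adjusted p-values lay between 0.0992 and 0.0996, so the count hung on the threshold. It was 0 at an FDR of 0.05, 190 at 0.11, 352 at 0.12 and 960 at 0.15. Without Ceft5 and Ceft10 it was 0 (3017 genes at p under 0.05), and it was also 0 without Ceft4, Ceft5, Ceft10, NC5, NC7 or NC13 alone, 5 without Ceft3 and 3 without NC15. It was 609 without Ceft8 and 679 without NC1. A fit of the 24 libraries alone called 1100 genes, 353 higher and 747 lower, among them 119 of the 134.

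In most of the 134 genes the change from day 0 was larger in size in CEFT than in NC (52 of the 58 higher and 69 of the 76 lower genes). These are the values that chose the genes, so they do not test which group moved. Among the 58 higher genes the median change was 0.38 in CEFT and -0.07 in NC, and 55 were called in CEFT on their own, but 1 in NC. Among the 76 lower genes the medians were -0.48 and 0.02, and 70 were called in CEFT and 3 in NC. The changes in CEFT and NC were fully separate in 85 of the 134 genes (3.53% of all genes tested). The same changes chose these genes, so nothing is read from that count. Ceft4 had the largest rise of the 6 CEFT steers in 23 of the 58 higher genes and the largest fall in 46 of the 76 lower genes. Ceft8 had neither in any of them. Ceft5 and Ceft10 had the 2 largest rises in 10 of the 58 higher genes (17.2%, against 9.31% of all genes tested) and the 2 largest falls in 0 of the 76 lower genes (6.88% of all).

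The steers given the other 5 antimicrobials, which share no samples with CEFT or NC, had changes of the same sign as CEFT in most of these genes. For the 76 lower genes the median change of their own, in the fit of all libraries, lay between -0.17 in FLOR and -0.34 in TILD, against -0.46 in CEFT and 0.03 in NC. Of the 76, 68 to 74 lay below 0 in each of these 5 treatments (47.5% to 49.4% of all genes tested). By the test, 12 fell in OXYT (1.02% of all genes) to 54 in TILD (4.86% of all). For the 58 higher genes the medians lay between 0.15 and 0.24, against 0.40 in CEFT and -0.07 in NC, with 48 to 56 of 58 above 0 (50.6% to 52.5% of all). In these 5 treatments NCOA2 changed by -0.40 to -0.62, JMJD1C by -0.55 to -0.81, USF3 by -0.45 to -0.75 and EIF2AK3 by -0.20 to -0.41. Against the mean of the 5, the CEFT change was called in 7 of the 58 higher and 0 of the 76 lower genes (0.257% of all genes tested). The NC change was called in none of the 134. Among the 7 were SERPINH1, CD248 and THBS3, which had their highest day 3 levels in Ceft5 and Ceft10. Without these 2 steers their differences from NC were 0.48, 0.29 and 0.49, none of them called. No test showed the lower changes to be particular to CEFT.

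**Figure D2:**
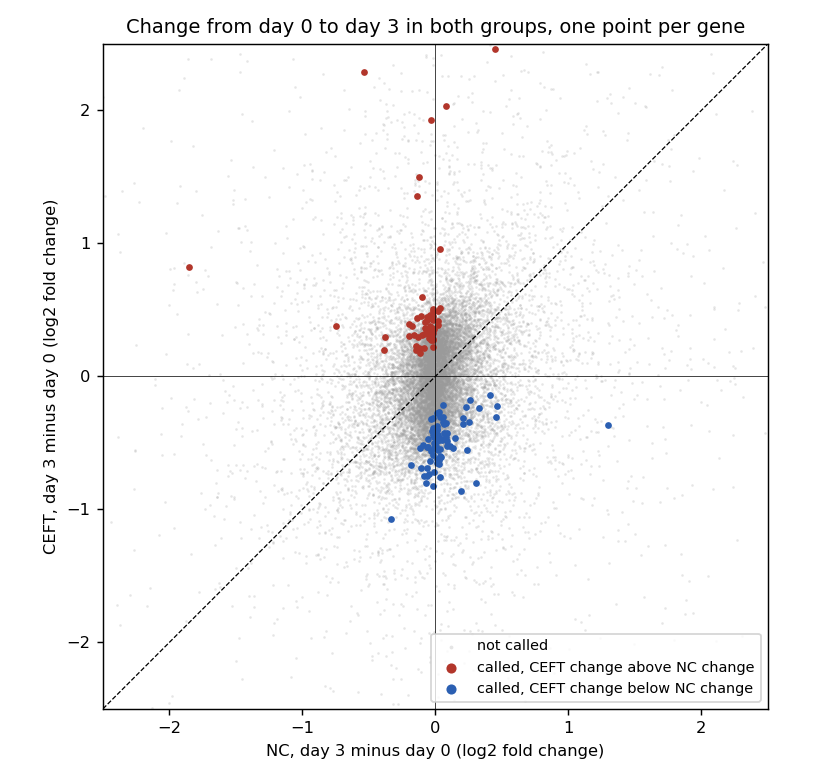
Log2 change from day 0 to day 3 in CEFT (vertical) against that in NC (horizontal), 1 point a gene, with the genes called between the groups in color. The axes stop at 2.5 on either side, which leaves out 541 genes, 4 of them called. Most called genes lie away from 0 on the CEFT axis and close to 0 on the NC axis, with medians of 0.38 and -0.07 for the higher genes.

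The 58 genes with higher changes in CEFT held ATP5F1D, MRPL4 and MRPS5, whose proteins work in the mitochondrion. ATP5F1D, the delta subunit of ATP synthase, lay between 89.8 and 124 CPM in CEFT on day 0 (median 111) and between 132 and 173 on day 3 (median 152). In NC it lay between 94.4 and 137 on day 0 (median 115) and between 91.3 and 117 on day 3 (median 108). All 6 CEFT changes were above 0 and all 6 NC changes below 0, and the difference was 0.57 (SE 0.16, adjusted p = 0.0992). MRPL4, a protein of the large mitochondrial ribosomal subunit, went from a median of 29.9 to 40.6 CPM in CEFT and from 30.3 to 28.7 in NC, with CEFT changes of 0.05 to 0.68. The NC changes lay between -0.13 and 0.14, so the groups overlapped, and the difference was 0.41 (SE 0.11). MRPS5, of the small subunit, had medians of 30.9 and 34.4 CPM in CEFT and of 32.3 and 29.5 in NC, with a difference of 0.35 (SE 0.09) and no overlap.

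ELAC2, the nuclease that trims the 3' ends of tRNA precursors in nucleus and mitochondrion, had the largest positive difference of the genes without overlap between the groups, 1.12 (SE 0.25). Few samples with low values carried it. In CEFT it lay between 34.9 and 40.7 CPM in 5 steers on day 0 and at 10.9 in Ceft4, and on day 3 between 38.4 and 49.3. In NC it lay between 29.9 and 39.7 on day 0, and on day 3 at 12.5 to 16.6 in NC1, NC5, NC12 and NC13 while NC7 and NC15 had log2 changes of -0.02 and -0.04. Over all libraries of the series ELAC2 was below 20 CPM in 10, between 20 and 25 in 5 and above 25 in 237. The CEFT change alone, 0.38, did not pass (adjusted p = 0.13, edgeR). Whether the authors' transcript assembly and gene naming gave this gene the same transcripts in every library was not tested, so the difference may not be one of expression.

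Among the other higher genes, BAK1, a pore-forming inducer of apoptosis, went from a median of 129 to 163 CPM in CEFT and from 133 to 127 in NC, a difference of 0.58 (SE 0.15). Its largest change was in Ceft4, 1.01, and the other 5 CEFT steers changed by 0.17 to 0.44. MVB12A, a subunit of the ESCRT-I sorting complex, had medians of 26.2 and 36.8 CPM in CEFT and of 29.3 and 28.7 in NC, and ACD, a telomere-binding shelterin protein, 19.95 and 27.9 in CEFT and 19.85 and 20.03 in NC. Each of these genes rose in all 6 CEFT steers. CXHXorf65, DLEC1, THAP4, WDR83 and DGCR6L completed the 10 with the largest positive differences among called genes without overlap between the groups. These ran from 0.48 for DGCR6L to ELAC2. Called genes with overlap, among them CKM, ACTA1, CD248, SERPINH1 and THBS3, had larger differences than ELAC2.

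Among the 76 genes with lower changes in CEFT, NCOA2, a coactivator of steroid receptors, lay between 64.3 and 111 CPM in CEFT on day 0 (median 68.3) and between 36.9 and 54.2 on day 3 (median 46.8), while NC went from a median of 72.4 to 70.7. All 6 CEFT steers fell, by 0.51 to 1.12, the NC changes lay between -0.11 and 0.08, and the difference was -0.69 (SE 0.16). JMJD1C, a histone demethylase family member, fell from a median of 103 to 52.01 CPM in CEFT. It went from 104 to 83.1 in NC, with changes below 0 in 6 of 6 steers of both groups and a difference of -0.74 (SE 0.20). ANKRD12, a nuclear ankyrin-repeat protein, went from a median of 71.8 to 40.9 CPM in CEFT and from 73.5 to 68.95 in NC. PRRC2C, an RNA-binding protein, went from 184 to 109 in CEFT and from 173 to 176 in NC. PNRC2, an adaptor of nuclear receptors and of mRNA decapping, went from 130 to 83.6 in CEFT and from 138 to 145 in NC.

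IGF1R, the receptor of insulin-like growth factor 1, lay between 20.4 and 29.3 CPM in CEFT on day 0 and between 12.2 and 18.5 on day 3, so the days did not overlap. In NC it spanned 14.7 to 28.2 on day 0 and 12.96 to 29.6 on day 3, and the difference was -0.67 (SE 0.15). PHLPP2, a phosphatase of Akt, went from a median of 10.2 to 6.78 CPM in CEFT and from 9.73 to 10.2 in NC. NF1, the Ras inhibitor neurofibromin, was low, with medians of 4.32 and 2.52 CPM in CEFT and 4.50 and 5.19 in NC, and had a difference of -1.06 (SE 0.27). USF3 (-0.80), LOC101902048 (-1.11) and LOC515333 (-0.52) were the other named genes with lower changes.

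**Figure D3:**
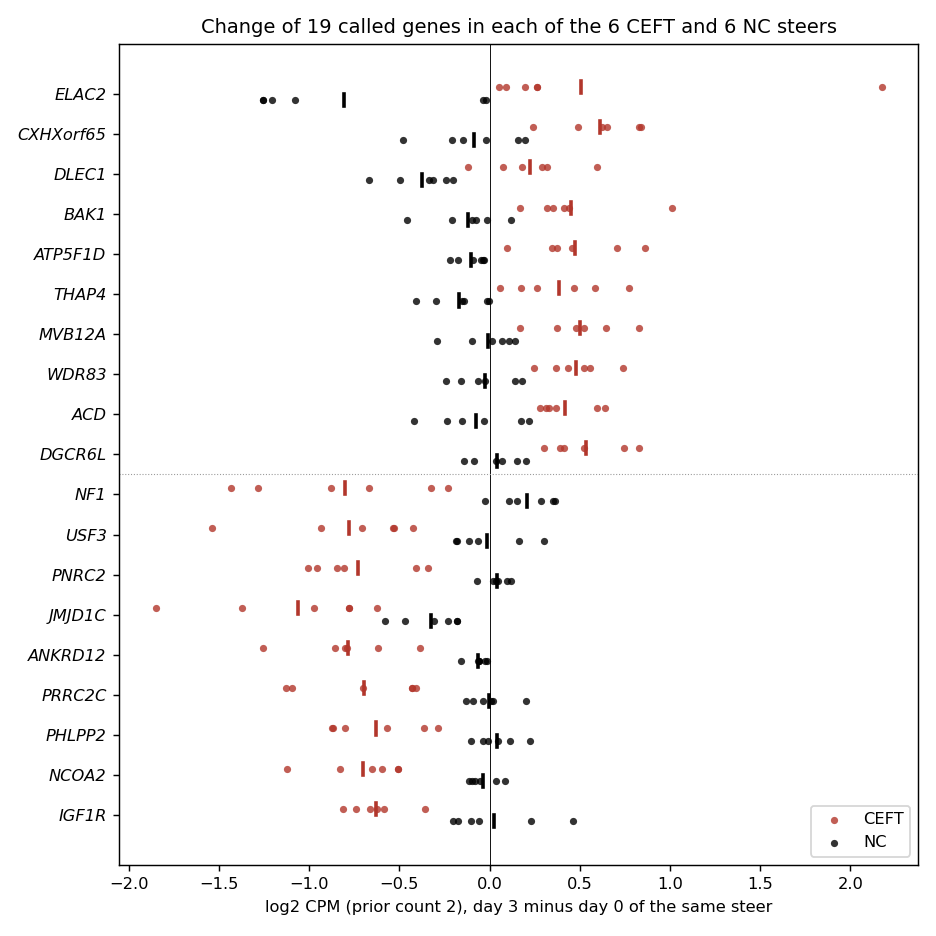
Log2 change from day 0 to day 3 in each of the 6 CEFT and 6 NC steers for 19 genes with symbols among those with the largest differences without overlap. In each gene the CEFT points lie on one side of the NC points. The 4 low NC points and the high point of Ceft4 set the spread of ELAC2.

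Some further called genes were picked out after their values were seen. NR3C1, the glucocorticoid receptor, had a difference of -0.68 (SE 0.19), with changes of -0.75 in CEFT and -0.07 in NC. PTPRC, which encodes the leukocyte phosphatase CD45, had a difference of -0.43 (SE 0.10) and FOXO3, a transcription factor restrained by Akt, one of -0.42 (SE 0.11). NIPBL (-0.59), which loads cohesin, BPTF (-0.57) and PBRM1 (-0.51), of chromatin remodeling complexes, the histone methyltransferase SETD2 (-0.39) and the histone demethylase KDM5A (-0.37) were called lower without overlap between the groups. They are single genes, since no list of chromatin genes was tested. On the higher side, TOMM40 (0.47) and TIMM17A (0.49), of the import pores of the mitochondrial membranes, IDH3B (0.36), of the citric acid cycle, and TXN2 (0.34), the mitochondrial thioredoxin, were called, as was BAD (0.47), an inducer of apoptosis.

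Of the 34 gene lists, 12 of cell type markers and 22 of pathways, 5 held a called gene and 29 held none, against 0.703% of all genes tested. Before adjustment, 8.98% of all genes had p under 0.05 with a higher and 9.03% with a lower change in CEFT than in NC. Of 77 mitochondrial ribosomal protein genes, 2 were called higher and 0 lower, 26 had p under 0.05 with a higher and 2 with a lower change, and the median difference was 0.19, against -0.01 for all genes tested. On their own in CEFT, 36 rose and 5 fell (20 and 0 without Ceft5 and Ceft10), where 13.2% of all genes rose and 14.5% fell (9.08% and 8.92% without them), and in NC none was called. Of 77 nuclear genes of oxidative phosphorylation, 1 was called (ATP5F1D), the median difference was 0.18, and 32 rose and 3 fell in CEFT (19 and 1 without those steers). NDUFA10 of complex I had a difference of 0.33 (adjusted p = 0.105) and COX5A of complex IV one of 0.39 (adjusted p = 0.118), both short of the threshold of edgeR's test. Of 37 proteasome genes, 0 were called and 15 had p under 0.05, 14 of them with a higher change, among them the base subunit PSMC4 (0.34, adjusted p = 0.117, edgeR). The median difference was 0.20, and 13 rose and 2 fell in CEFT (11 and 1 without Ceft5 and Ceft10). The 13 genes of the mitochondrial DNA itself had no call in any of these tests, with a median difference of 0.06.

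The steers of both groups overlapped in the medians of these lists. For the mitochondrial ribosomal proteins the median change was 0.05 to 0.35 in CEFT and -0.09 to 0.11 in NC, and for the proteasome 0.04 to 0.45 and -0.21 to 0.11. Ceft4 and Ceft10 were the highest for oxidative phosphorylation, at 0.42 and 0.54, while the other 4 CEFT steers, at 0.06 to 0.09, lay within the NC range of -0.11 to 0.15. The 84 cytosolic ribosomal protein genes had a median difference of -0.12, with no call, 13 with a lower change at p under 0.05 and 0 with a higher one. In CEFT 15 of them rose and 2 fell, but 0 rose and 1 fell without Ceft5 and Ceft10.

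Cholesterol synthesis was the list in which NC moved. The pathway builds cholesterol from acetyl-CoA through mevalonate, and its genes share control by SREBP transcription factors. Of 18 genes tested, 17 had a negative difference, 9 of them at p under 0.05, and 2 were called, CYP51A1 among them. The median difference was -0.49, from median changes of 0.38 in NC and 0.02 in CEFT. CYP51A1, lanosterol demethylase, lay between 38.8 and 58.9 CPM on day 0 and between 55.9 and 80.03 on day 3 in NC, and went from a median of 47.3 to 42.2 in CEFT, a difference of -0.55 (SE 0.14). In NC, SCD (0.66), INSIG1 (0.52), MSMO1 (0.47), SQLE (0.42) and CYP51A1 (0.41) rose on their own. Without Ceft5 and Ceft10 the median difference of the list was -0.34 and that of CYP51A1 -0.49, which was not called.

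Genes that respond to glucocorticoids had the largest median fall in CEFT of the pathway lists, -0.67, against -0.13 in NC. In CEFT 8 of 14 fell and MT2A, a metallothionein, rose (14.5% of all genes fell), while in NC the decoy receptor IL1R2 alone fell. TXNIP, an inhibitor of thioredoxin, fell by 0.76 in CEFT and the kinase SGK1 fell by 0.71, and the cochaperone FKBP5 fell by 0.72. The difference from NC was called for none of the 14 and 4 had p under 0.05, for example CXCR4, the receptor of CXCL12, with -1.09 (adjusted p = 0.147, edgeR). Without Ceft5 and Ceft10, 3 of the 14 fell in CEFT and the median difference from NC was -0.33. Set against OXYT, the group on the same lane, the median difference of the list was -0.01, with 0 genes called.

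The integrated stress response held 1 call among 13 genes, with a median difference of -0.10. EIF2AK3, the endoplasmic reticulum kinase PERK, went from a median of 41.9 to 31.1 CPM in CEFT and from 41.9 to 43.7 in NC. It fell in all 6 CEFT steers, by 0.20 to 0.73, without overlap, and the difference was -0.46 (SE 0.11).

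The study named genes of T-cell receptor and NF-kB signaling for ceftiofur on day 3, and since that choice was made on these samples the counts of both lists are not independent evidence. None of those described here was called as a difference of changes. The study compared levels of CEFT and NC within day 3, a different measure, so its calls were not retested. TAB2, an adaptor of the kinase TAK1, went from a median of 86.7 to 67.5 CPM in CEFT and from 93.1 to 85.6 in NC. It fell in CEFT on its own (-0.47), and the difference was -0.38 (SE 0.14, adjusted p = 0.149, edgeR). MALT1, the paracaspase of antigen receptor signaling, fell in CEFT by 0.22, and its difference was -0.20 (SE 0.12). RPS27A, a ubiquitin and ribosomal protein fusion, varied widely, from 47.6 to 298 CPM in CEFT and from 80.1 to 486 in NC on day 3. Its difference of -1.41 had an SE of 0.55, and as for ELAC2 it was not tested whether the assembly gave it the same transcripts in every library. SKP1, of the SCF ubiquitin ligase, had a difference of -0.44 (SE 0.21). Of 32 genes of T-cell receptor signaling 5 rose and 10 fell in CEFT, and 5 rose and 6 fell without Ceft5 and Ceft10. Of 22 genes of the NF-kB pathway 4 rose and 8 fell, and 3 rose and 4 fell without those steers (13.2% of all genes rose and 14.5% fell, 9.08% and 8.92% without them). No difference was called in either list, and the median differences were -0.09 and 0.08. At p under 0.05, 9 genes of the T-cell receptor list had a lower and 4 a higher change in CEFT. In the NF-kB list these were 7 lower and 2 higher (9.03% of all genes tested lower and 8.98% higher).

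The 22 interferon-stimulated genes tested varied widely between steers of the same group. Their median change per steer was -2.85 in Ceft10, between 0.19 and 1.23 in Ceft3, Ceft5, Ceft6 and Ceft8 and 2.18 in Ceft4, and between -1.59 and 0.49 in NC. No gene was called between the groups or in CEFT alone. Without Ceft5 and Ceft10, 13 of 22 rose in CEFT (9.08% of all genes tested), and the median difference moved from 0.64 to 1.71. This setting leaves out Ceft10, the steer with the lowest median change, and again called no gene between the groups.

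Of the marker lists of blood cells none held a called difference. The 14 T-cell genes had a median difference of 0.08. In CEFT 8 of them rose and 1 fell (13.2% and 14.5% of all genes), but 4 rose and 0 fell without Ceft5 and Ceft10. With all steers CD247, the zeta chain of the T-cell receptor complex (0.42), and CD3D (0.33) were among those that rose, and the median change was above 0 in 6 of 6 CEFT and 6 of 6 NC steers. Neutrophil genes had median changes below 0 in 5 of 6 steers of each group, with a median difference of 0.24. The median difference was -0.08 for B and plasma cells, 0.15 for NK cells, -0.01 for monocytes, -0.12 for platelets and 0.25 for erythroid cells. For genes of neutrophil granule precursors, which mark immature granulocytes, it was -2.70, with no call, and 2 of the 12 genes had p under 0.05. Their summed level lay between 142 and 862 CPM in CEFT and between 369 and 886 CPM in NC on day 3. Genes of eosinophils and basophils had a median difference of -0.35, and those of skin and hair one of -0.61. The skin and hair list holds the 3 collagen genes, which rose in CEFT on their own (0 of the list without Ceft5 and Ceft10), and its other 7 genes had means below 1 CPM. Its sum went from 40.5 to 588 CPM in Ceft5 and from 1.67 to 502 in Ceft10, and was 28.9 CPM or less on day 3 in the other 4 CEFT steers. The part of cell composition in the called genes was not tested.

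**Figure D4:**
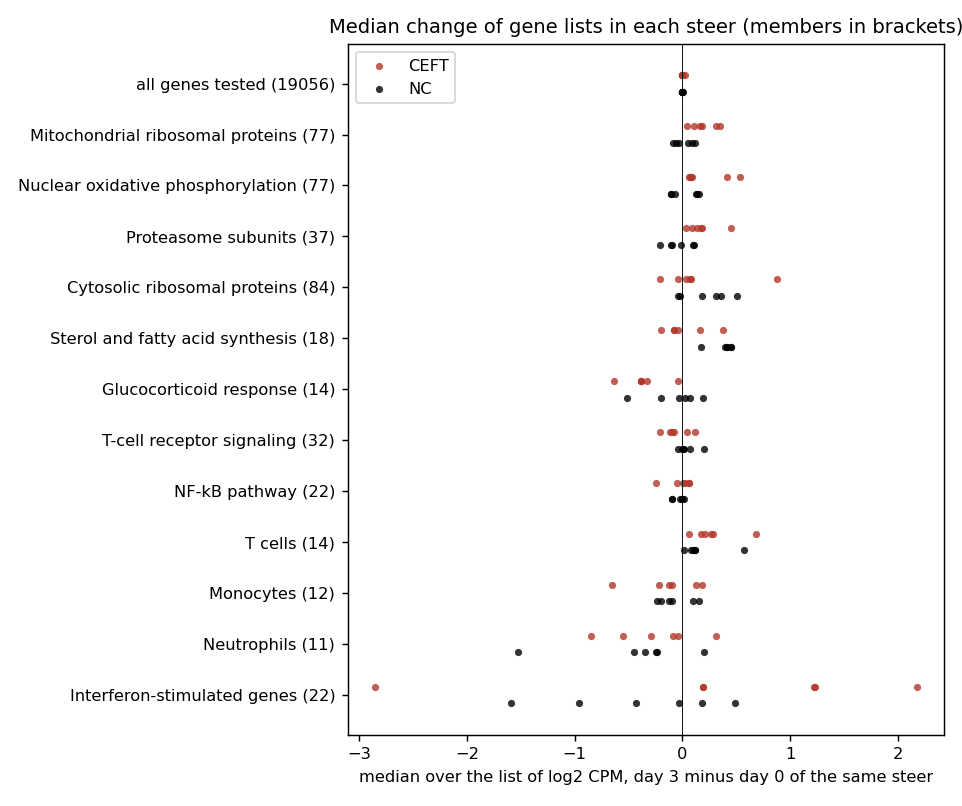
Median log2 change from day 0 to day 3 over all genes tested and over the members of 12 gene lists in each CEFT and NC steer, 1 point a steer. The sterol list lies above 0 in NC, the mitochondrial ribosomal and proteasome lists reach higher in CEFT than in NC, and the interferon list spreads from -2.85 to 2.18 within CEFT.

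The remaining pathway lists had no call between CEFT and NC. Their median differences were 0.26 for the cell cycle, 0.19 for acute phase and neutrophil activation, 0.13 for class II histocompatibility, 0.11 for the lysosome, 0.05 for class I antigen processing, 0.00 for inflammatory cytokines, -0.05 for splicing factors, and -0.09 for the Toll-like receptors, the circadian clock and the immediate early genes. Heat shock genes had -0.11. The gamma delta WC1 markers had 0.00.

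Against OXYT, the same lane and a different antimicrobial, 3 genes passed (0.0157%) with a higher change in CEFT and 0 with a lower one, and 2607 genes had p under 0.05. ASIC1, an acid-sensing ion channel, went from a median of 2.14 to 3.89 CPM in CEFT and rose in all 6 steers, by 0.63 to 1.304, while the OXYT changes lay between -0.74 and 0.47. The difference was 0.98 (SE 0.19, adjusted p = 0.0935, edgeR). PYGM, muscle glycogen phosphorylase, rose in all 6 CEFT steers, from a median of 12.7 to 32.2 CPM, with a difference of 1.31 (SE 0.27, adjusted p = 0.0963, edgeR). The third was MYOZ1, a sarcomere protein at a mean below 1 CPM, which the rule for named genes left out (2.86). The count was 0 without Ceft5 and Ceft10, and 247 without Ceft8. For ATP5F1D the difference from OXYT was 0.35, for NCOA2 -0.27 and for IGF1R -0.46, none of them called.

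Against the mean change of the other 5 antimicrobials, 49 genes passed (0.257%), 47 of them higher in CEFT. SERPINH1, a chaperone of collagen, CD248, a surface protein of stromal cells, and THBS3, a thrombospondin of the matrix, had the smallest p-values, with differences of 1.80, 2.17 and 1.40. SERPINH1 lay between 1.26 and 3.64 CPM in CEFT on day 0 and between 3.33 and 31.7 on day 3, and its change was 3.90 in Ceft10 and 3.61 in Ceft5 but 1.02 or less in the other 4 steers. Ceft5 and Ceft10 had the 2 largest rises in 36 of the 47 genes (76.6%, against 9.31% of all genes tested). The fit of all libraries was not run without both steers. A fit of the 84 libraries of days 0 and 3 called 2 genes with all steers and 0 without these. CRLF3 (-0.26) had a lower change. BOLA-DQA5, a class II gene at 0 in 139 libraries of the series, was called with a fitted difference of -3.90. Its difference from NC, -4.27 and not called, turned to 1.48 without Ceft6. It was at 0 on both days in Ceft3, Ceft5 and Ceft10, went from 18.9 to 0 CPM in Ceft6, from 108 to 155 in Ceft4 and from 0 to 13.2 in Ceft8, and the CEFT mean went from 21.1 to 28.1, so no direction is read from it. The NC change against the mean of the same 5 treatments called 0 genes (0%) by edgeR's quasi-likelihood test and by its likelihood ratio test, with 1432 and 1461 genes at p under 0.05.

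The later samples of the same steers were then followed for the 134 genes, as mean changes from day 0 without a test. In CEFT the median over the 58 higher genes was 0.40 at day 3 and 0.35, 0.48, 0.45 and 0.27 at days 7, 14, 21 and 56. In NC it was -0.06 at first, then 0.09, 0.28, 0.22 and 0.24, and 54 of the 58 lay above 0 on day 14, against 51.4% of all genes tested. The 76 lower genes had medians of -0.45, -0.48, -0.66, -0.53 and -0.38 in CEFT. In NC these were 0.04, -0.20, -0.43, -0.38 and -0.36, with 71 of 76 below 0 on day 14, against 48.5% of all genes tested. The NC steers thus had mean changes of the same sign as CEFT from day 7 on for most of these genes. All these values share the day 0 samples. The genes were chosen by their difference on day 3, so a smaller difference on other days can follow from that choice. Whether NC caught up with CEFT was not tested.

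Single genes picked from the called ones showed this as well. PRRC2C had a mean of 187 ± 39.2, 113 ± 9.25 and 83.1 ± 10.4 CPM (SD, n = 6) in CEFT on days 0, 3 and 14. In NC it was at 173 ± 23.9, 173 ± 28.3, 137 ± 41.3 and 98.9 ± 18.3 on days 0, 3, 7 and 14. ATP5F1D was at 110 ± 12.6 and 152 ± 14.5 CPM in CEFT on days 0 and 3, and in NC at 114 ± 13.6, 107 ± 10.1 and 140 ± 22.7 on days 0, 3 and 14. CYP51A1 did not come together and stayed at 68.6 to 71.8 CPM on average in NC and at 42.5 to 52.2 in CEFT from day 3 to day 56.

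**Figure D5:**
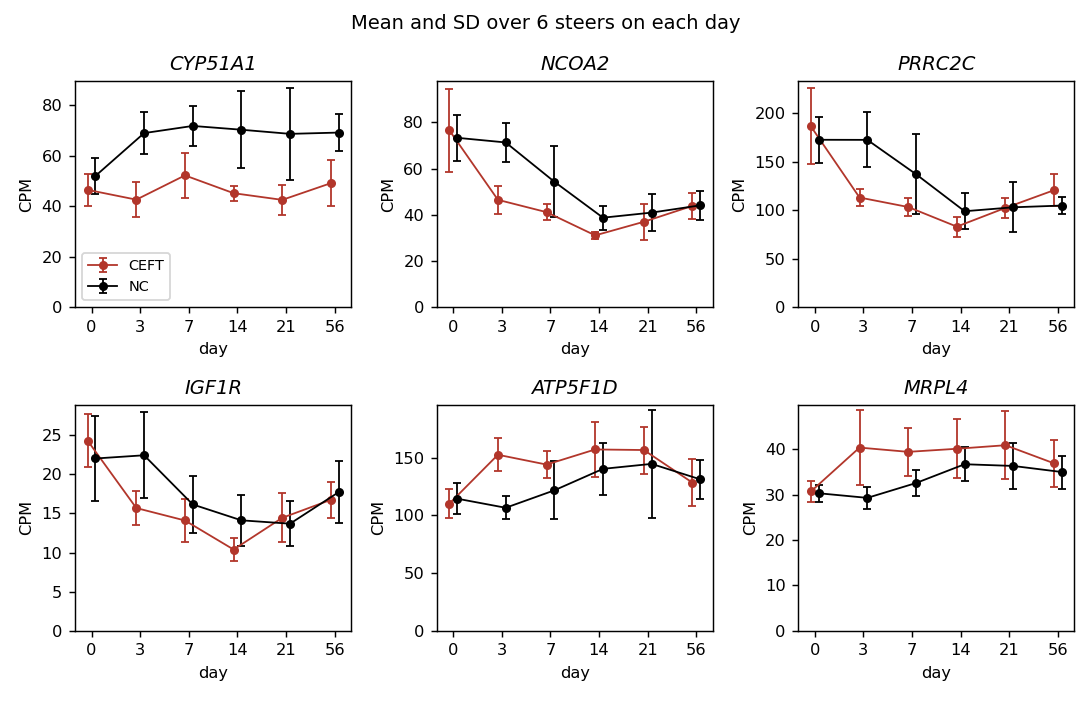
Mean CPM ± SD of 6 genes in the 6 CEFT and 6 NC steers by day, with the days drawn at even spacing. NCOA2, PRRC2C, IGF1R, ATP5F1D and MRPL4 part on day 3 and lie closer by day 21, while NC stays above CEFT for CYP51A1 from day 3 on. The genes were picked from those called on day 3.

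The difference of changes between CEFT and NC, tested on the later days in the same fit, called 0 genes on days 7, 21 and 56 (1900, 2050 and 1116 at p under 0.05, edgeR's quasi-likelihood test) and 259 genes on day 14 (1.36%). These counts without Ceft5 and Ceft10 were 1, 2 and 0 on days 7, 21 and 56 and 35 on day 14 (0.184%). IGF1R (-0.63, adjusted p = 0.0269) was among the 259 of day 14 and not called without those steers (adjusted p = 0.179). The sterol list kept its level in NC, with 17 or 18 of 18 genes above their day 0 mean on each later day and a median of 0.39 on day 3 and 0.40 on day 56. In CEFT its medians lay between -0.03 and 0.19.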

How the data were processed

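Per the labels and the study's methods, blood was drawn into PAXgene tubes and stranded mRNA libraries were sequenced. The submitters' processing notes name Trimmomatic 0.39, HISAT2 2.1.1 and StringTie 2.2.0. The authors aligned to ARS-UCD1.3 and derived each count from transcript coverage with prepDE, so the deposited counts are whole-number estimates, neither normalized nor lane-adjusted. All columns were mapped to a sample by name.

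Genes with CPM above 0.2 in at least 12 libraries of the series were tested (19056 of 33282). edgeR 4.0.16 (R 4.3.3) with TMM fitted the 72 CEFT and NC libraries of all days by quasi-likelihood, with steer as block and treatment by day terms (50 residual degrees of freedom), at a Benjamini-Hochberg FDR of 0.1. OXYT had its own fit of 72 libraries with CEFT, and the mean of the other 5 treatments came from a fit of all libraries. Adjusted p-values in the text are from these fits and cover all genes tested. The steer labels pair the days. Deviations from group means of a steer's libraries had a median correlation of 0.364 (different steers -0.0716), and the day 0 and day 3 deviations correlated above 0.1 in 12 of 12 steers. Per-steer changes are of log2 CPM with a prior count of 2.

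The study compared each treatment with NC within each day by edgeR's likelihood ratio test after ComBat_seq. For its lists by day it kept genes also found by glmmSeq, a mixed model with animal and breed as random effects. Here the likelihood ratio test and ComBat_seq (sva 3.50.0) were each run separately, on the difference of changes, and glmmSeq was not run. Further alternatives were RLE, limma 3.58.1 and DESeq2 1.42.0. The fit was tested on simulated data. The comparison, gene lists and tests were chosen with earlier results of these data known. Genes named by rule were called, had a mean of at least 1 CPM over the 24 libraries and did not overlap between groups (the 10 largest differences each way, up to 2 identifiers each way). To them came called list members (at most 4 a list), the genes the study named, and the 3 smallest p-values each way against OXYT and the other treatments. Counting did not settle reads shared by paralogs, such as ribosomal protein or class II genes. Each steer is 1 animal of 1 pen per treatment. With steer as block, level differences between steers are taken out. The p-values of edgeR rest on the scatter that remains around each steer's level and its group's days, pooled over all days of the fit. Some genes that this rule named are not reported here.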

Additional observations from a re-analysis of the deposited data

Results flagged for a closer look

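In groups of 6 steers, a steer was looked at again when the gap to its nearest neighbor, as a ratio to the group's range, exceeded Dixon's critical value. This picked 7 of 90 groups (7.78%), where chance gives about 1 in 20. Ceft4 was far above the other CEFT steers for ELAC2 (ratio 0.9, change 2.18 against 0.05 to 0.26) and BAK1 (0.678, change 1.01 against 0.17 to 0.44). In NC, NC7 stood off for ANKRD12 (0.646, change -0.16 against -0.06 to -0.01) and for MRPL4 (0.736, change 0.14 against -0.13 to -0.06), and NC13 for LOC101902048 (0.634, change 0.77 against 0.06 to 0.32). NC5 was the only NC steer with a change of BOLA-DQA5, 0.13 against 0 in the rest (ratio 1). The hemoglobin share fell in NC15 by 2.61 on the log2 scale and rose by 1.22 to 1.81 in the other 5 NC steers (ratio 0.866).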

How the results depend on the processing

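The counts of called genes on day 3 were recomputed under other settings. Those of later days, of the other treatments' own changes and of the gene lists were recomputed, where given above, without Ceft5 and Ceft10 and not under the settings that follow. The cause of a move was not tested unless the setting itself removes samples or genes. The 134 genes between CEFT and NC became 1100 with the 24 libraries alone, 366 in a fit of the whole series, 48 by the likelihood ratio test, 79 after ComBat_seq by lane (24 higher, 55 lower), 2 by limma voom, 1230 by DESeq2, 499 with CPM above 1, 0 without a filter on low counts and 0 at FDR 0.05. At FDR 0.15, a setting added after seeing the data, 960 passed. RLE size factors gave 145 (71 higher, 74 lower) and leaving out hemoglobin genes 120. Without the replicate block of steers 0 genes passed, with 1314 at p under 0.05. Leaving out 1 steer at a time gave 0 to 679. Without Ceft5 and Ceft10, also added after seeing the data, 0 genes passed, and 1 with the 24 libraries.

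The CEFT change of its own stayed between 5052 and 5380 genes under other fits and scalings, between 2857 and 5284 without 1 steer, and was 3430 without Ceft5 and Ceft10. The NC change gave 0 genes with the 24 libraries (1350 at p under 0.05), 73 in the fit of the whole series and 71 by the likelihood ratio test, and 7 to 33 without 1 steer. Against OXYT the counts were 0 (24 libraries, 2247 at p under 0.05), 28 (fit of the whole series), 52 (likelihood ratio test), 0 to 247 without 1 steer and 0 without Ceft5 and Ceft10. Against the other 5 treatments 2 genes passed in a fit of the 84 libraries of days 0 and 3, and 0 of these without Ceft5 and Ceft10. For NC against the same 5, 9 passed in the fit of 84.

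Over the named genes, 595 values kept direction and side of the threshold, 495 kept the direction without passing, and 13 newly passed. The sign turned for BOLA-DQA5 alone, to 0.27 with the 24 libraries, 0.29 without the replicate block, 1.48 without Ceft6 (-6.28 to 1.48 without 1 CEFT or NC steer) and 0.26 with the 24 libraries without Ceft5 and Ceft10. At these depths a gene at the minimum of 0.2 CPM has few counts in a library, and low genes such as ACTA1 and CKM carry wide errors.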
